A study of Arabidopsis thaliana with 4 samples.

Results

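The *FLC* clade and *SVP* are 7 MADS-box genes of *Arabidopsis thaliana* that act as repressors of flowering: *FLC* (AT5G10140), *FLM* (AT1G77080), *MAF2* (AT5G65050), *MAF3* (AT5G65060), *MAF4* (AT5G65070), *MAF5* (AT5G65080) and *SVP* (AT2G22540). They were chosen by locus identifier and family, by a rule that uses no measured value, though with earlier results of these data known. They are 7 of the 32833 genes listed in the count tables. All 7 had enough counts to be tested, among 21673 genes tested in all. None of the 7 passed the threshold of an adjusted p under 0.05 in *mettl4-1* against Col-0 seedlings (edgeR quasi-likelihood test, Benjamini-Hochberg adjustment over all genes tested). That threshold was passed by 2.83% of all genes tested. *MAF5* had the largest difference in size, at 1.63-fold. The log2 fold change of *FLM* was 0.13, and 0.05 to 0.21 over the fits that left out a library.

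MADS-box proteins bind DNA as dimers through their conserved N-terminal MADS domain. In the leaves and the shoot apex of *Arabidopsis*, *FLC* and *SVP* proteins bind to the flowering activators *FT* and *SOC1* and keep them low. *FLC* is the gene that prolonged cold silences during vernalization, its antisense RNAs are called COOLAIR, and the Columbia accession carries an inactive allele of its activator *FRIGIDA*. *FLM* and *MAF2* to *MAF5* are relatives of *FLC*, and *FLM* and *MAF2* are known for alternative splicing that changes with ambient temperature. METTL4, the enzyme missing in the mutant, methylates U2 snRNA, the spliceosomal RNA that pairs with the branch point of introns.

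RNA was sequenced from whole seedlings of 14 days in 2 *mettl4-1* libraries and 2 Col-0 libraries. *mettl4-1* is a single T-DNA insertion line with the insertion in the first exon of *METTL4*, Col-0 is its wild type, and both are of the Columbia background. Both were cultured on Murashige and Skoog medium in long days, 16 h of light at 22 °C by the labels, while the study's methods give a slightly lower temperature for the plants used for RNA. The deposited counts of *mettl4-1* replicate 2 stand in a file named for another allele of the gene, in a column headed as that of replicate 1, and the label was followed. The growth notes give 8 h of dark for every library, whereas the source names give 10 and 11 h for *mettl4-1* replicates 1 and 2, against 8 and 9 h for Col-0 replicates 1 and 2. The sources used here do not say whether the replicates were grown separately, so each p-value measures the spread between these libraries, which may be technical.

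Total counts were 51919219 and 50862075 in the *mettl4-1* libraries, against 54709289 and 66003824 in the Col-0 libraries. Levels are given as CPM, TMM-normalised counts per 1e+06 counts of a library, and 3 counts, taken as the floor of detection, equal 0.0450 to 0.0593 CPM. *METTL4* itself had 35 and 46 counts in *mettl4-1*, against 355 and 413 in Col-0, a log2 fold change of -2.99 (SE 0.14, edgeR adjusted p = 8.6e-07). Chloroplast and mitochondrial genes took 2.68% and 1.03% of the counts in *mettl4-1*, against 0.693% and 0.713% in Col-0, and the 2 *mettl4-1* libraries differed from each other more than the 2 Col-0 libraries did, with 1504 of 21345 against 162 of 21599 nuclear genes apart in a chi-square test. That test takes reads as independent molecules and sets the spread between libraries against counting error alone. The 18S ribosomal RNA took 3.65% and 1.25% of the counts in *mettl4-1*, against 0.495% and 0.369% in Col-0, and its part in the values of the 7 genes was not tested. With organelle genes removed the log2 fold changes of *FLM* and *MAF5* were 0.13 and 0.71, as with them. The RNA is from whole seedlings, in which fewer cells of a type and less RNA per cell cannot be told apart.

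The MADS boxes of 5 of the genes show how close the family is, which matters because reads from near-identical stretches can be assigned to the wrong gene. Each line holds the 180 bases that encode the MADS domain, from the RefSeq annotation of TAIR10.1, 5′ to 3′ on the coding strand, and capitals mark bases that differ from *FLC*. *FLC* lies on the minus strand (chr5:3179160-3179339), and *FLM* (chr1:28955679-28955858), *MAF4* (chr5:25992310-25992489), *MAF5* (chr5:25997671-25997850) and *SVP* (chr2:9580417-9580596) on the plus strand.
FLC: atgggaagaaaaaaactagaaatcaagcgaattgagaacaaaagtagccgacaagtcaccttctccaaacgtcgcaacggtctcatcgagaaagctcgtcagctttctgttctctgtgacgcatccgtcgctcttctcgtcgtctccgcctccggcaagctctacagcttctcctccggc
FLM: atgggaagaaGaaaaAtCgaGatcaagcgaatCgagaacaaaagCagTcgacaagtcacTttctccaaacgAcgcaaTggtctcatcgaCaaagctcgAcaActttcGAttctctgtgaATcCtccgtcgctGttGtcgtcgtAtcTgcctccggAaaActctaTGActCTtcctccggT
MAF4: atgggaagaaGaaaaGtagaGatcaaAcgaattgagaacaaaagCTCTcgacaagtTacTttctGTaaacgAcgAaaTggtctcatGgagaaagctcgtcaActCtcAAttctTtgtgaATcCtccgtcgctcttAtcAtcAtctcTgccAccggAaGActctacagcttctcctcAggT
MAF5: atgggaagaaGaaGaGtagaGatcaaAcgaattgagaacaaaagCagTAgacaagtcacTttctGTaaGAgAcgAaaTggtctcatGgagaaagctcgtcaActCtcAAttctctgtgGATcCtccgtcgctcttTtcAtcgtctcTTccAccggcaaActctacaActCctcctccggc
SVP: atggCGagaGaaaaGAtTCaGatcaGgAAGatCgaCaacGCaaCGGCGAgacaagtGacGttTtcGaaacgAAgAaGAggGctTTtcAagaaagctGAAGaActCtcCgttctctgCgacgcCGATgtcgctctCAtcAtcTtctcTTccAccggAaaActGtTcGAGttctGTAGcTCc

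Against *FLC*, 30 bases differed in *FLM*, 27 in *MAF2*, 32 in *MAF3*, 34 in *MAF4*, 33 in *MAF5* and 67 in *SVP*. In the encoded 60 residues, *FLM* and *MAF2* differed from FLC at 10 each, *MAF4* at 12, *MAF3* and *MAF5* at 14 each and *SVP* at 25. Proteins of the clade were 54.1% to 87.8% identical over the residues aligned without gaps, in 15 pairs. Between SVP and the clade the same measure was 35.4% to 41.2%. The closest pair was MAF2 with MAF3 (87.8%), and MAF4 with MAF5 were 71.7% identical.

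In the joined annotated exons, the longest exact stretch shared by a pair of clade genes was 16 to 61 bases long. For *SVP* with a clade gene it was 11 to 15 bases long. The longest, in coding exons of *FLM* (chr1:28955695-28955755) and *MAF3* (chr5:25987543-25987603), and the one shared by *MAF4* (chr5:25992380-25992422) and *MAF5* (chr5:25997741-25997783) are shown. Counts of *MAF4* and *MAF5* are compared with each other below. So are those of *MAF2* and *MAF3*, which share a stretch of 52 bases that is not shown.
FLM and MAF3: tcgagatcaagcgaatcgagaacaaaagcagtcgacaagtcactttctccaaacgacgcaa
MAF4 and MAF5: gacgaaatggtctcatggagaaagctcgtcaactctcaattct
The authors filtered reads by mapping quality before counting, at a threshold not given in the sources used here. How the counting treated reads that map to more than 1 place is not given either, so counts from these stretches are uncertain. The annotated exons of each gene were also aligned to the whole nuclear chromosomes, introns included. Outside its own locus, the longest alignment of *MAF4* lay in *MAF5* (385 bases at 77.4% identity). That of *FLM* lay in *MAF3* (861 bases at 79.9%), and that of *SVP* in *AGL24*, outside the clade (182 bases at 81.3%).

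*FLC*, the vernalization-responsive repressor (chr5:3173382-3179448, minus strand), was at a low level in both genotypes. It had 100 and 103 counts in *mettl4-1*, against 113 and 116 in Col-0, or 1.98 and 2.00 CPM in *mettl4-1*, against 2.05 and 1.74 CPM in Col-0. The *mettl4-1* libraries lay between the Col-0 libraries, so the groups overlapped. The log2 fold change was 0.07 (SE 0.15, 95% interval -0.27 to 0.42, edgeR adjusted p = 0.875), and it was -0.05 without Col-0 replicate 2. The annotated COOLAIR locus (AT5G01675, chr5:3173371-3179600, plus strand) covers 68.1% of the exon bases of *FLC* and had 0 and 1 counts in *mettl4-1*, against 0 and 4 in Col-0, too few to be tested. The library kit keeps the strand, but whether the counting used it is not given in the sources used here, so antisense reads within *FLC* cannot be separated.

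*FLM*, whose protein represses flowering together with SVP (chr1:28955483-28960234, plus strand), had 42.4 and 47.4 CPM in *mettl4-1*, against 40.6 and 41.3 CPM in Col-0. Both *mettl4-1* libraries were above both Col-0 libraries, and the *mettl4-1* libraries stood further from each other than the lower of them stood from Col-0. The log2 fold change was 0.13 (SE 0.05, 95% interval 0.03 to 0.24, edgeR adjusted p = 0.208). The 2 *mettl4-1* libraries disagreed on the size of this difference: without *mettl4-1* replicate 1 it was 0.21, and without *mettl4-1* replicate 2 it was 0.05. The annotation holds 11 transcripts of *FLM*, and a count per gene sums them, so splice forms were not measured.

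*MAF2*, *MAF3*, *MAF4* and *MAF5* lie in a row on the plus strand, within 20366 bp (chr5:25982254-26002619). *MAF2*, known to delay flowering after short cold spells, had 32.2 and 33.0 CPM in *mettl4-1*, against 32.7 and 33.0 CPM in Col-0. Its log2 fold change of -0.01 (SE 0.04, 95% interval -0.10 to 0.07, adjusted p = 0.915) came from overlapping groups. *MAF3*, its closest relative, had 13.4 and 14.2 CPM in *mettl4-1*, against 13.3 and 13.1 CPM in Col-0. The *mettl4-1* libraries of *MAF3* were just above those of Col-0, with a log2 fold change of 0.07 (SE 0.06, 95% interval -0.06 to 0.19, adjusted p = 0.645). For both genes the interval excludes a change of 1.5-fold in either direction.

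The pair at the far end of the row was much lower. *MAF4*, a repressor that also loses expression in prolonged cold, had 44 and 51 counts in *mettl4-1*, against 66 and 68 in Col-0. In CPM this was 0.870 and 0.991 in *mettl4-1*, against 1.20 and 1.02 in Col-0, lower in both *mettl4-1* libraries by a margin that was small beside the spread within Col-0. The log2 fold change was -0.25 (SE 0.21, 95% interval -0.70 to 0.21, adjusted p = 0.635). *MAF5*, which is known to be induced in prolonged cold, had 42 and 46 counts in *mettl4-1*, against 30 and 34 in Col-0. In CPM this was 0.831 and 0.894 in *mettl4-1*, against 0.545 and 0.510 in Col-0, with a gap between the genotypes larger than the spread within either. The fold change of *MAF5* was 1.63 (95% interval 1.14 to 2.35, log2 fold change 0.71, SE 0.24, edgeR adjusted p = 0.171).

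*SVP*, the partner of FLC and FLM (chr2:9579647-9583901, plus strand), was the most abundant of the 7. It had 70.9 and 73.1 CPM in *mettl4-1*, against 70.0 and 70.7 CPM in Col-0. The lower *mettl4-1* library was above the higher Col-0 library by less than the spread within *mettl4-1*. The log2 fold change was 0.03 (SE 0.03, 95% interval -0.03 to 0.10, adjusted p = 0.663), the narrowest interval of the 7.

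**Figure D1:**
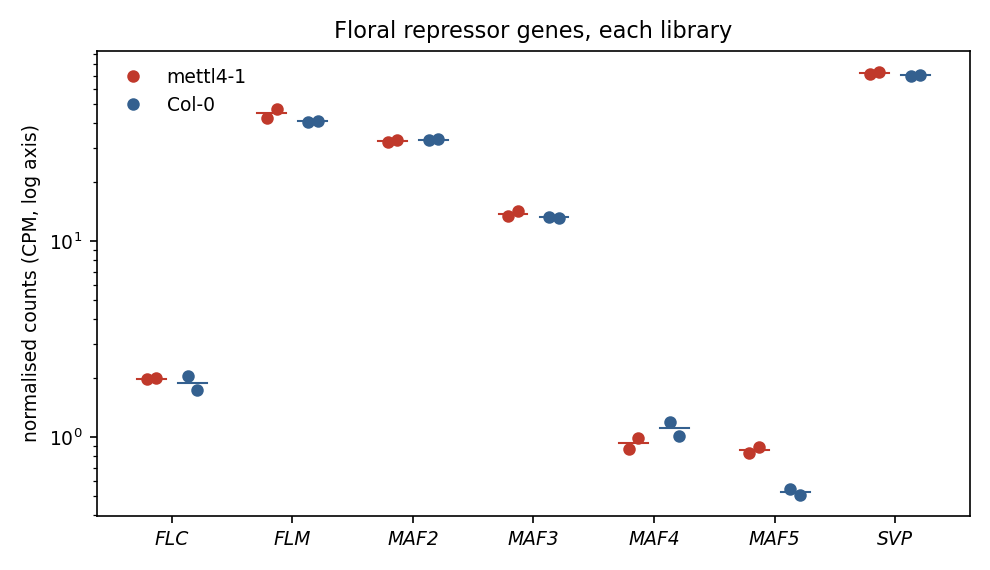
Normalised counts (CPM, log axis) of the 7 floral repressor genes, with 1 point per library, *mettl4-1* in red on the left and Col-0 in blue on the right of each gene, and a short line at the mean of the 2 libraries. *MAF5* is the gene with the widest gap between the genotypes, at 0.831 and 0.894 CPM in *mettl4-1*, against 0.545 and 0.510 CPM in Col-0.

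At an adjusted p under 0.05, 0 of the 7 genes were called by edgeR. The DESeq2 Wald test gave an adjusted p for 3 of them (*FLM*, *MAF2* and *SVP*) and called 0 of these 3. Over all genes tested 2.83% were called, 0.96% as higher and 1.87% as lower in *mettl4-1*. At an unadjusted p under 0.05 there were 2 of the 7, *FLM* and *MAF5*, against 15.2% of all genes tested. A change of at least 1.5-fold with an unadjusted p under 0.05 was met by 1 of the 7, *MAF5*, against 1.62% of all genes. The *mettl4-1* and Col-0 libraries did not overlap for 5 of the 7 genes (*FLM*, *MAF3*, *MAF5* and *SVP* higher, *MAF4* lower), against 45.8% of all genes. The log2 fold change was above 0 for 5 of the 7, against 10991 of the 21673 genes tested. Its median was 0.07 over the 7, against 0.0015 over all genes tested.

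*MAF5* kept a log2 fold change of 0.66 to 0.76 under the 10 alternatives tried, with adjusted p between 0.145 and 0.554 in those that gave one (the DESeq2 Wald test gave none). It met the rule of 1.5-fold with an unadjusted p under 0.05 in 7 of them, and did not in the DESeq2 Wald test, without Col-0 replicate 2 or without *mettl4-1* replicate 2.

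**Figure D2:**
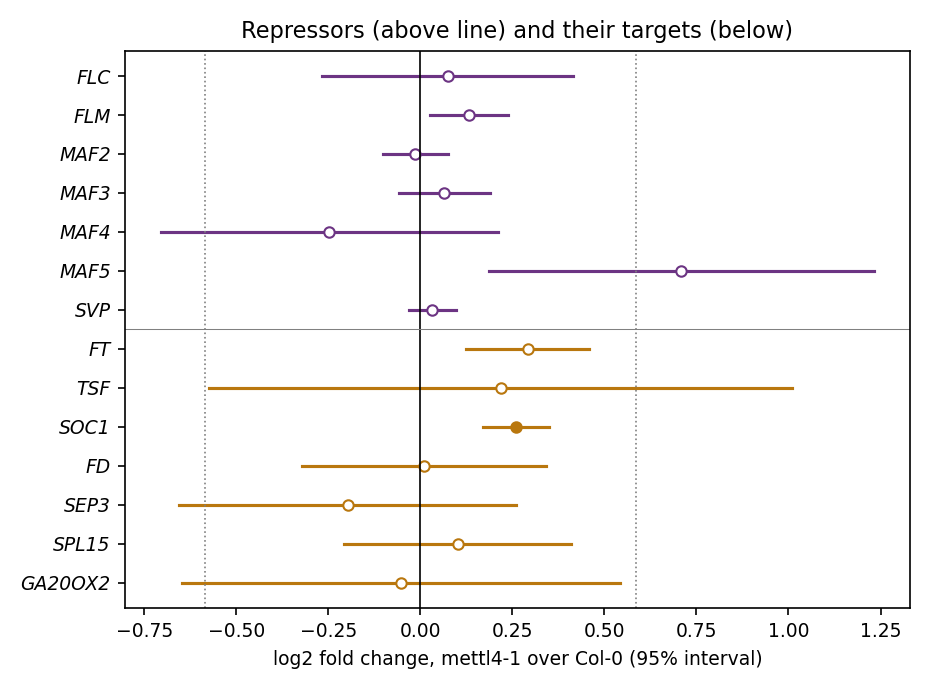
Log2 fold change, *mettl4-1* over Col-0, with its 95% interval for the 7 repressor genes (above the line) and for 7 genes they are known to repress (below the line). Filled points have an adjusted p under 0.05, dotted lines mark 1.5-fold in each direction, and the filled point is *SOC1* at 0.26.

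Under the same 10 alternatives *MAF4* had log2 fold changes of -0.37 to -0.13, *MAF3* of 0.02 to 0.11 and *SVP* of 0.01 to 0.05, and none of these 3 passed the threshold where an adjusted p was given. The spread between replicates sets the scale for these values. The log2 ratio of replicate 1 to replicate 2 was -0.19 in *mettl4-1* and 0.23 in Col-0 for *MAF4*, -0.11 in *mettl4-1* and 0.10 in Col-0 for *MAF5*, and -0.02 in *mettl4-1* and 0.24 in Col-0 for *FLC*. It was -0.16 in *mettl4-1* and -0.02 in Col-0 for *FLM*, and it lay between -0.08 and 0.02 in both genotypes for *MAF2*, *MAF3* and *SVP*. The low-count genes *FLC* and *MAF4* thus varied between Col-0 replicates by about as much as *MAF4* differed between the genotypes.

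The plot of all genes tested shows the 7 genes beside genes of like abundance, by eye only, and their place in that spread was not tested. *MAF4* and *MAF5* lie at low CPM, where log2 fold changes scatter widely, and the 4 more abundant genes (*FLM*, *MAF2*, *MAF3* and *SVP*) lie near 0.

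**Figure D3:**
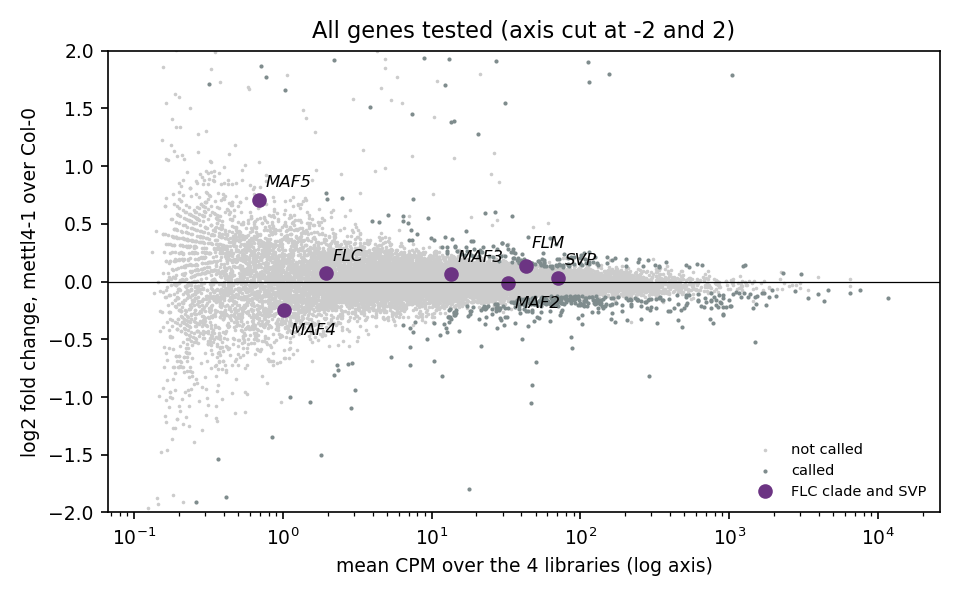
Log2 fold change, *mettl4-1* over Col-0, against the mean CPM of the 4 libraries (log axis) for the genes tested, with called genes in dark grey, genes not called in light grey and the 7 repressor genes in purple. The axis ends at -2 and 2, so 107 genes are not drawn, and *MAF5* stands at 0.71 and *MAF4* at -0.25.

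*MAF4* and *MAF5* had log2 fold changes of opposite sign, a contrast that was picked after their values were seen and so carries no test. *MAF4* made up 51.2% (exact 95% interval 40.1% to 62.1%) and 52.6% (42.2% to 62.8%) of the summed *MAF4* and *MAF5* counts in *mettl4-1*. In Col-0 it made up 68.8% (58.5% to 77.8%) and 66.7% (56.6% to 75.7%). The shares were lower in both *mettl4-1* libraries, while the intervals, which cover counting error only, overlapped between the genotypes. The sums were alike, at 86 and 97 counts in *mettl4-1*, against 96 and 102 in Col-0. With 2 libraries against 2, the smallest two-sided p of an exact permutation test is 0.333.

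**Figure D4:**
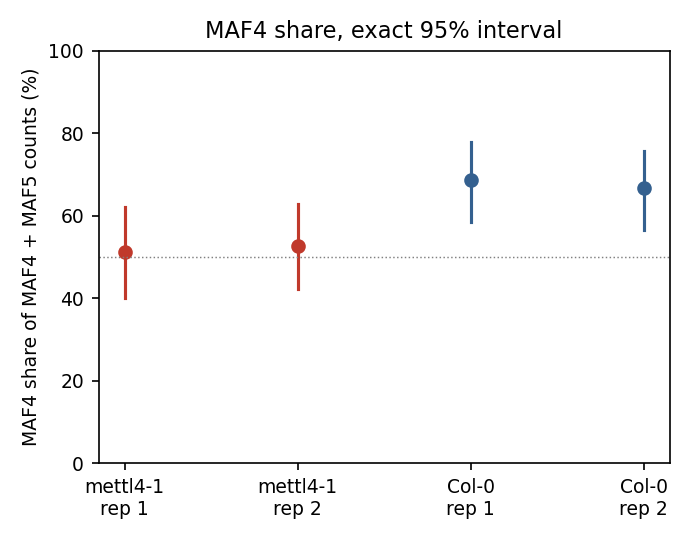
*MAF4* counts as a percentage of the summed *MAF4* and *MAF5* counts in each library, with exact 95% binomial intervals and a dotted line at equal counts. The *mettl4-1* libraries stand at 51.2% and 52.6%, and the Col-0 libraries at 68.8% and 66.7%.

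The summed level of the 4 genes of the row was 47.3 and 49.1 CPM in *mettl4-1*, against 47.8 and 47.7 CPM in Col-0, so the groups overlapped. Ratios within a library do not depend on its normalisation. The ratio of *MAF2* to *MAF3* counts was 2.39 and 2.32 in *mettl4-1*, against 2.45 and 2.52 in Col-0. The ratio of *FLM* to *SVP*, whose proteins act together, was 0.597 and 0.648 in *mettl4-1*, against 0.580 and 0.583 in Col-0. *MAF2* to *MAF3* was lower, and *FLM* to *SVP* higher, in both *mettl4-1* libraries, each by a small step beside that of *MAF4* to *MAF5*, at 1.05 and 1.11 in *mettl4-1*, against 2.2 and 2.0 in Col-0.

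To set the genes side by side, CPM were divided by the length of the union of annotated exons in kb. *SVP* came first, at 40.2 ± 0.854 CPM per kb in *mettl4-1* and 39.3 ± 0.284 in Col-0 (SD, n = 2 each), and held 56.1% and 55.2% of the summed level of the 7 genes in *mettl4-1*, against 56.0% and 56.5% in Col-0. *FLM* followed at 10.0 ± 0.789 CPM per kb in *mettl4-1* and 9.14 ± 0.1004 in Col-0, *MAF2* at 9.63 ± 0.173 in *mettl4-1* and 9.72 ± 0.0696 in Col-0, and *MAF3* at 9.44 ± 0.382 in *mettl4-1* and 9.03 ± 0.107 in Col-0. These 3 could not be ordered in *mettl4-1*, where their libraries overlapped, and in Col-0 *MAF2* stood above the other two. *FLC* was lower, at 1.69 ± 0.0139 CPM per kb in *mettl4-1* and 1.61 ± 0.188 in Col-0.

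*MAF4* and *MAF5* were at the bottom of this order, and which of them was last by this length differed between the genotypes. *MAF5* had 0.703 ± 0.0363 CPM per kb in *mettl4-1* and 0.430 ± 0.0202 in Col-0, and *MAF4* had 0.565 ± 0.0518 in *mettl4-1* and 0.675 ± 0.0770 in Col-0. Thus per kb *MAF5* exceeded *MAF4* in both *mettl4-1* libraries, and *MAF4* exceeded *MAF5* in both Col-0 libraries. In raw counts *MAF4* was the higher in every library, at 44 against 42 and 51 against 46 in *mettl4-1*. The order in *mettl4-1* therefore rests on the lengths used, 1646 bp for *MAF4* and 1227 bp for *MAF5*. It was not tested against counting error. By the longest annotated transcript *MAF4* was at 0.745 and *MAF5* at 0.763 CPM per kb in *mettl4-1*, with overlapping libraries, against 0.889 and 0.467 in Col-0.

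The choice of length changed the middle of the order. By the transcript with the longest coding sequence, a choice made after the data had been seen, *FLM* stood at 41.0 CPM per kb in *mettl4-1* and 37.4 in Col-0, *MAF2* at 30.4 in *mettl4-1* and 30.6 in Col-0, and *MAF3* at 11.96 in *mettl4-1* and 11.4 in Col-0. The annotated exons of *FLM* sum to 4480 bp and that transcript has 1095 bp, against 3384 and 1073 bp for *MAF2*. *SVP* remained first under each of the 3 lengths.

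**Figure D5:**
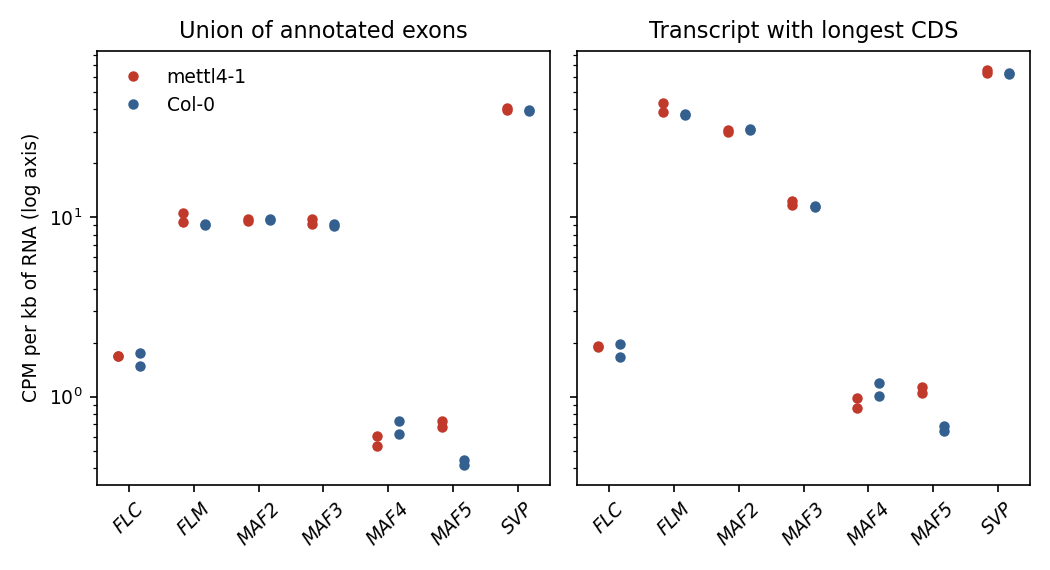
CPM per kb of RNA (log axis) of the 7 genes in each library, *mettl4-1* in red on the left and Col-0 in blue on the right of each gene, by the union of annotated exons (left) and by the transcript with the longest coding sequence (right). *FLM*, *MAF2* and *MAF3* are near 10 in the left panel and spread from 11.3 to 43.3 over the libraries in the right one, while *MAF4* and *MAF5* change places between the genotypes in both.

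Annotated genes beside the 7 were checked because adjoining transcription can add reads. Of the neighbours that are not among the 7, AT1G77090, on the minus strand 77 bp from *FLM*, was the only one called, against 2.83% of all genes tested. It had 38.9 and 40.6 CPM in *mettl4-1*, against 44.3 and 44.9 CPM in Col-0, and was lower with a log2 fold change of -0.17 (edgeR adjusted p = 0.0341), opposite in sign to *FLM*. The others had log2 fold changes between -0.04 (AT2G22530, beside *SVP*) and 0.19 (AT5G10130, beside *FLC*).

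*FT* and *SOC1*, the direct targets through which the repressors act, were tested alongside them. *SOC1*, a MADS-box activator of flowering, had 38.1 and 38.0 CPM in *mettl4-1*, against 32.7 and 31.0 CPM in Col-0. Both *mettl4-1* libraries were above both Col-0 libraries, and *SOC1* rose with a log2 fold change of 0.26 (SE 0.04, edgeR adjusted p = 0.00763), which became 0.22 with an adjusted p of 0.0703 without Col-0 replicate 2. *FT*, which encodes the mobile flowering signal made in leaves, had 9.22 and 10.0 CPM in *mettl4-1*, against 7.60 and 8.09 CPM in Col-0, a log2 fold change of 0.29 (SE 0.08, adjusted p = 0.0768). The adjusted p of *FT* fell under the threshold without a filter on low counts (0.0375), with organelle genes removed (0.0311) and without *mettl4-1* replicate 1 (0.0171).

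Of the 8 listed targets of the repressors, 7 were tested, with a median log2 fold change of 0.10. *SOC1* was the only one called, against 2.83% of all genes tested. The other tested targets had log2 fold changes of 0.22 (*TSF*, the close relative of *FT*), 0.10 (*SPL15*), 0.01 (*FD*, the partner of FT in the apex), -0.05 (*GA20OX2*, a gibberellin biosynthesis gene) and -0.20 (*SEP3*). Of 12 other MADS-box genes of flowering, 9 were tested and 0 were called by edgeR, against 2.83% of all genes tested. At an unadjusted p under 0.05 there were 3 of the 9, against 15.2% of all genes tested. *AP1*, which specifies floral meristems, met the rule of 1.5-fold with an unadjusted p under 0.05. It had 28 and 31 counts in *mettl4-1*, against 20 and 19 in Col-0 (log2 fold change 0.84, adjusted p = 0.195). *FUL*, its relative, had a log2 fold change of 0.39 (adjusted p = 0.0709), and *AGL24*, the closest relative of *SVP* and an activator of flowering, 0.20 (adjusted p = 0.155). These 3 were named after their values were seen, and the median of the 9 was 0.04. *AGL17* (-0.34) and *AGL15* (-0.11) were below 0, and the rest lay between 0.004 (*AGL14*) and 0.05 (*AGL42*).

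The known regulators of *FLC* were counted in the same way, against 2.83% called over all genes tested. Of 27 activators tested, 1 was called higher and 0 lower, with a median log2 fold change of 0.03. That gene was *ABH1*, the large subunit of the nuclear cap-binding complex, with 60.9 CPM in each of the *mettl4-1* libraries, against 52.3 and 50.5 CPM in Col-0 (log2 fold change 0.25, adjusted p = 0.00189). Of 22 repressors of *FLC*, 21 were tested, 0 were called higher and 1 lower, with a median of -0.01. That gene was *GRP7*, an RNA-binding protein of the autonomous pathway and of the clock, with 724 and 786 CPM in *mettl4-1*, against 888 and 851 CPM in Col-0 (log2 fold change -0.20, adjusted p = 0.0130). The call for *GRP7* was lost without Col-0 replicate 1 (adjusted p = 0.0774). *VIN3*, the cold-induced silencer of *FLC*, had 0 and 2 counts in *mettl4-1*, against 8 and 3 in Col-0, and was not tested.

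Of 11 Polycomb genes, whose complexes hold *FLC* and its relatives silent, 11 were tested, 0 were called higher and 1 lower. Over all genes tested, 0.96% were called higher and 1.87% lower. *RING1A*, a subunit of Polycomb repressive complex 1 known to repress *MAF4* and *MAF5*, fell to 9.59 and 9.83 CPM in *mettl4-1*, against 128 and 128 CPM in Col-0. Its log2 fold change was -3.72 (SE 0.03, adjusted p = 1.39e-13), and *RING1B*, its homologue, had 0.23 (adjusted p = 0.211). Beside it stand the differences of *MAF5* (0.71) and *MAF4* (-0.25), neither of them called, and the part of *RING1A* in them was not tested. Of 7 factors of the splicing of *FLM*, 7 were tested, with a median log2 fold change of 0.01. Among them are the U2AF subunits, which bind the end of the intron and recruit U2 snRNP. By edgeR 0 of the 7 were called, against 2.83% of all genes tested. At an unadjusted p under 0.05 there were 0 of the 7, against 15.2% of all genes tested.

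Markers of other tissues were summed in each library beside these results. Over all genes tested, 2.83% were called, and 10991 of 21673 had a log2 fold change above 0. The 4 leaf, root and meristem markers summed to 15026 and 15740 CPM in *mettl4-1*, against 17037 and 16871 CPM in Col-0, with 1 called higher, 2 called lower and none at 0. The 6 floral organ markers summed to 4.69 and 4.97 CPM in *mettl4-1*, against 3.42 and 3.41 CPM in Col-0, with all 6 log2 fold changes above 0 and 0 called. The 9 seed storage markers summed to 3.16 and 2.95 CPM in *mettl4-1*, against 84.6 and 83.7 CPM in Col-0. All 9 were called lower, 5 and 4 of them were at 0 in the *mettl4-1* libraries, and none was at 0 in Col-0. Their part in the values of *MAF5*, *SOC1*, *FT* and *AP1* was not tested.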

How the data were processed

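Raw counts per gene were deposited for 2 *mettl4-1* and 2 Col-0 libraries. The authors obtained these counts with Cutadapt 3.5 (trimming), Hisat2 2.2.1 (mapping, on TAIR10), SAMtools 1.13 (a filter on mapping quality) and featureCounts 2.0.1. Not given in the sources used here are the annotation release and how counting treated strand, reads with several mapping places and overlapping genes. Genotypes follow the labels. The deposited counts of *mettl4-1* replicate 2 are filed under the name of another allele, and the labels were followed.

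The quasi-likelihood test of edgeR 4.0.16 (R 4.3.3) compared the genotypes without a covariate, after TMM normalisation and removal of low genes by filterByExpr (minimum count 10), and was tested on simulated data. A call is a Benjamini-Hochberg adjusted p under 0.05 over 21673 genes, and the study's rule of 1.5-fold with an unadjusted p under 0.05 was applied beside it. Alternatives were DESeq2-style size factors, other filters on low counts, DESeq2 1.42.0, a replicate block, removal of 133 chloroplast and 152 mitochondrial genes, each library left out, and other gene lengths. In fits with 1 library left out, the lone library of its genotype is assumed to vary like the others. Lengths, positions and sequences come from RefSeq TAIR10.1, and shared sequence was measured with Biopython 1.88 and BLAST 2.17.0. Intervals of shares are exact binomial (Clopper-Pearson) and cover counting error only.

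The members and lists were chosen with earlier results of these data known. The genes to be named were the 7 members, called members of the target, MADS-box and Polycomb lists, *FT*, *SOC1*, *RING1A* and *METTL4* whatever their values, up to 4 called members of each list of regulators, and the neighbours of members. The 2 genes most like each called member were to be named too, and since no member was called, none is. Other names were chosen after their values were seen.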

Additional observations from a re-analysis of the deposited data

How the results depend on the processing

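No setting that kept all 4 libraries called any of the 7 genes at an adjusted p under 0.05 (DESeq2 gave one for 3 of them), and the rule of 1.5-fold with an unadjusted p under 0.05 called 1 (*MAF5*). Leaving out each library in turn called 0 to 1 of the 7 genes (*FLM*, without *mettl4-1* replicate 1), 0 to 2 of the repressed targets, 0 to 1 of the other MADS-box genes, 1 to 5 of the *FLC* activators, 0 to 2 of the *FLC* repressors and 1 to 2 of the Polycomb genes. Without a filter on low counts, and likewise with organelle genes removed, 2 repressed targets, 1 other MADS-box gene and 2 *FLC* activators were called. Calls over all genes rose in these settings too, from 614 to 930 and 865. They also moved with each library left out, as given below, so the counts per list are not specific to the lists. The log2 fold change of *FLC* was -0.0467 without Col-0 replicate 2 (range -0.0467 to 0.19 over the libraries left out), and that of *MAF2* was 0.0048 without *mettl4-1* replicate 1 (range -0.0325 to 0.0048). The cause of these shifts was not tested. Of the other log2 fold changes of named genes, 116 kept their sign and their side of the threshold, 4 passed it (*FLM* in 1 setting and *FT* in 3) and 2 no longer did (*SOC1* and *GRP7*).

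Over all genes, 614 were called, against 930 without a filter, 384 with DESeq2, 342 to 1806 with 1 library left out and 865 with organelle genes removed. Replicate numbers are shared between the genotypes, but same-numbered libraries did not deviate together (r = -0.0072 over 21531 genes). With the replicate block, 0 of the 7 genes were called, *FLM* had an adjusted p of 0.118 and *MAF5* of 0.209, and 684 genes were called in all. Levels per kb of *FLC*, *FLM*, *MAF2*, *MAF4* and *MAF5* moved by more than their spread with the length used, those of all 7 genes with the added length. Depth limits what can be said of low genes such as *MAF4* and *MAF5*, at 30 to 68 counts a library.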
